A study of Homo sapiens with 6 samples.

Results

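The 9 transcripts described here encode enzymes of the mevalonate pathway, from the thiolase that joins acetyl units to the synthase that makes squalene. They were selected by gene name, in pathway order, as ACAT2, HMGCS1, MVK, PMVK, MVD, IDI1, FDPS, GGPS1 and FDFT1, and make up 9 of the 35750 genes of the deposited table. All 9 were found in the table. The RNA came from T98G, a human glioblastoma cell line, kept in a serum-containing medium. There were 3 libraries labelled shSLC1A5, from cells with a short hairpin RNA against the neutral amino acid and glutamine transporter SLC1A5, and 3 labelled shControl. Neither the hairpin sequences, their delivery, the time after it nor any picking of clones is described in the labels. Whether replicate libraries stem from separate cultures is not labelled either, so the p-values reflect only library-to-library spread, possibly technical.

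The mevalonate pathway turns acetyl-CoA into isoprenoid units. A thiolase and a synthase build HMG-CoA, which is reduced to mevalonate, and then kinases and a decarboxylase make the isoprenoid building block that IDI1 isomerises and FDPS joins into farnesyl pyrophosphate. From there FDFT1 commits the carbon to squalene and cholesterol, while GGPS1 lengthens the chain for prenylation of small GTPases. Most genes of the pathway are known targets of the transcription factor SREBP2, which is released from the endoplasmic reticulum when membrane sterol is low and held there by INSIG proteins when it is high. Glioblastoma cells in culture both make cholesterol and take it up from lipoproteins.

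The libraries held 66998312 to 70802167 counts in shSLC1A5 and 59327548 to 63420773 in shControl. SLC1A5 itself had 23334, 22251 and 22079 counts in the libraries labelled shSLC1A5 and 22682, 22395 and 21515 in shControl, and its FPKM (fragments scaled for transcript length and library size) was 87.9 ± 0.407 in shSLC1A5 and 95.8 ± 1.15 in shControl (SD, n = 3 each). Its log2 fold change was -0.14 (edgeR adjusted p = 0.000193), or -0.35 after a correction for transcript GC content and length (edgeR adjusted p = 2.91e-07), so directions below are those of the libraries labelled shSLC1A5. The markers VIM, CD44, NES, CAV1 and FN1 of T98G and mesenchymal cells summed to 5802 to 5911 CPM (counts scaled to the library total) in shSLC1A5 and 6294 to 6315 in shControl. They did not move together, since FN1 had 42.2 to 43.0 FPKM in shSLC1A5 and 33.3 to 34.9 FPKM in shControl and NES was also higher in shSLC1A5, while VIM, CD44 and CAV1 were lower. The glial markers GFAP, OLIG2 and SOX2 summed to 2.80 to 3.08 CPM in shSLC1A5 and 3.00 to 3.33 CPM in shControl, and SOX2 was at 0 counts in the 3 shSLC1A5 libraries.

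Transcripts of B cells, which a glioblastoma line should lack, were present in the 3 shSLC1A5 libraries. The 7 B and plasma cell markers summed to 9.25 to 17.6 CPM in shSLC1A5 and 0.221 to 0.438 in shControl, and IGHM was at 0 in every shControl library. The 9 neutrophil and myeloid markers reached 73.6 CPM in shSLC1A5 replicate 1, against 0.915 and 1.09 in the other shSLC1A5 libraries and 0.820 to 0.944 in shControl, and 1 of them, MPO, was at 0 throughout. The 4 red cell markers found in the table had 779, 20 and 7 counts in shSLC1A5, against 5, 6 and 0 counts in shControl. The 3 T cell markers summed to at most 0.0597 in shSLC1A5 and 0.0477 in shControl, and PTPRC, a gene of all leukocytes, to 5.21, 0.295 and 0.284 in shSLC1A5 and at most 0.169 in shControl. Their part in the results below was not tested, and in bulk RNA fewer cells of a type and less RNA per cell cannot be told apart.

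Across the pathway, 7 of the 9 transcripts were lower in shSLC1A5 and 0 were higher by the edgeR quasi-likelihood test at a Benjamini-Hochberg adjusted p under 0.05, which called 19.0% of the 11841 tested genes lower and 20.2% higher (39.2% in either direction). All 9 passed the low-value filter, a 6-library mean of 1 FPKM or more. At an unadjusted p under 0.05, 7 were lower and 1 was higher, and DESeq2 and limma each called 7 lower and 0 higher. HMGCS1, IDI1, FDFT1 and MVK were at 30.2%, 41.8%, 49.4% and 50.3% of their shControl level, ACAT2, FDPS and MVD at 61.5%, 66.9% and 67.9%, and the 2 that did not pass, GGPS1 and PMVK, at 91.9% and 114%. The median log2 fold change of the 9 was -0.70, beside -0.0057 over all tested genes. In FPKM, 7 of the 9 had groups that did not overlap, all lower in shSLC1A5, as did 22.3% of tested genes in that direction and 27.3% in the other. PMVK and GGPS1, whose groups overlapped, stand in the pathway beside enzymes whose transcripts were lower: MVK and MVD on either side of PMVK, and FDPS and FDFT1 around GGPS1.

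**Figure D1:**
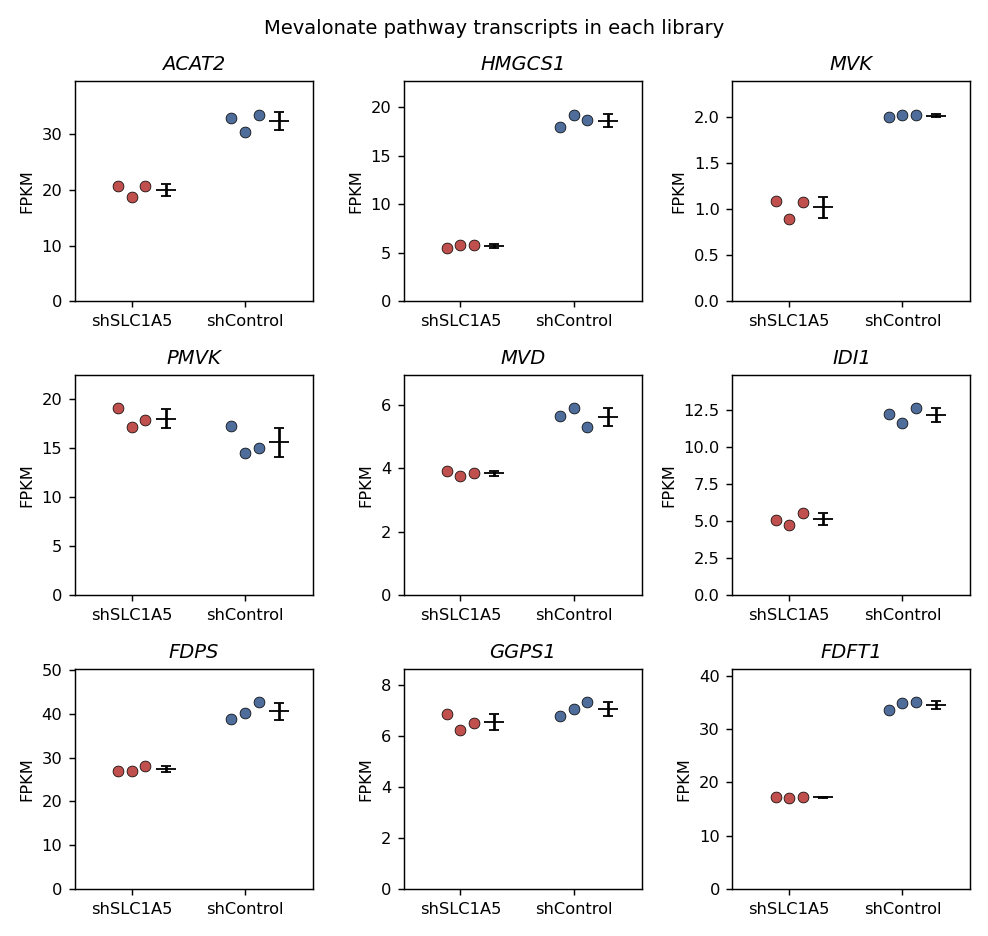
FPKM (y axis, from 0) of each of the 9 mevalonate pathway transcripts in the 3 shSLC1A5 and 3 shControl libraries (points), with the mean and SD beside each group. The groups stand apart for 7 transcripts and overlap for PMVK and GGPS1; HMGCS1 had means of 5.68 FPKM in shSLC1A5 and 18.6 FPKM in shControl.

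Windows of 300 bases around annotated start sites (250 before and 50 after) were available from RefSeq on GRCh38.p14 for 7 of the 9 genes, 12 windows in all, and 4 are shown because they belong to the 2 genes that fell most and the 2 that did not pass the test. The genes were chosen after their values were seen, and for genes with several windows the one shown was chosen among those that hold the motif described next. Capitals mark the letters CCAAT on either strand (ATTGG on the printed strand), the box bound by NF-Y, a usual partner of SREBP factors. The HMGCS1 window is chr5:43313363-43313662, minus strand, the IDI1 window chr10:1049070-1049369, minus strand, the PMVK window chr1:154936670-154936969, minus strand and the GGPS1 window chr1:235328320-235328619, plus strand.
HMGCS1: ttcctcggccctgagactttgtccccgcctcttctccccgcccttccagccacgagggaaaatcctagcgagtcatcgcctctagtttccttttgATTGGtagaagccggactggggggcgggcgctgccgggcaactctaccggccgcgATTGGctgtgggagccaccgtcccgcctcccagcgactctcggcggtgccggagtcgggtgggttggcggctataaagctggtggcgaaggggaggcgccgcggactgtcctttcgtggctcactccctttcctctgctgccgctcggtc
IDI1: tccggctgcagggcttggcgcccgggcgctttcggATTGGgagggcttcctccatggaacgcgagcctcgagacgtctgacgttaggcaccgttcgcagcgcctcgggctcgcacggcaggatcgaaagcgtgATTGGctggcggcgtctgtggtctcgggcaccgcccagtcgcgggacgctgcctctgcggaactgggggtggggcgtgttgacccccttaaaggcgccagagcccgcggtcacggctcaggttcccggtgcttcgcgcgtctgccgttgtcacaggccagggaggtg
PMVK: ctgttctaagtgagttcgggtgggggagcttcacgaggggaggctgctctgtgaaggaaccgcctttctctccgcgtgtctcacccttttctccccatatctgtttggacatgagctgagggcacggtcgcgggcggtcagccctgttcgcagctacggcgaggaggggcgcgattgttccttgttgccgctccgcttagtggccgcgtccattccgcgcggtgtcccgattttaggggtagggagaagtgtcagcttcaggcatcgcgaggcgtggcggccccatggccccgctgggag
GGPS1: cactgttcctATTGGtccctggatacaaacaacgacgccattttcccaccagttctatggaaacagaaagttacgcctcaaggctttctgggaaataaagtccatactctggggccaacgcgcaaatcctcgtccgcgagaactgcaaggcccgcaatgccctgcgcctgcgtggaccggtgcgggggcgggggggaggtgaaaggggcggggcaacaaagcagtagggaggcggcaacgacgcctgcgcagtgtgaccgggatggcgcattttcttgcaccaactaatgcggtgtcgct
The HMGCS1 window carried 2 CCAAT boxes, at positions -155 and -100 from the start site, both on the strand opposite to the gene, and the IDI1 window carried 2, at -215 and -117. The other HMGCS1 window held 0, and the other IDI1 windows 0 and 3. The single PMVK window held no CCAAT, and of the 3 GGPS1 windows this one held 1, at -240, and the others 0.

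Of the 12 windows, 7 had at least 1 CCAAT match and 6 had at least 2, against 34.6% and 10.8% of all 35116 RefSeq windows. Counted by gene, which gives genes with several windows more chances, 6 of the 7 had a match and 5 had at least 2 in 1 window. No share by gene over all genes was computed, so these counts by gene have no reference. The 5 were HMGCS1, MVK, MVD, IDI1 and FDPS, with up to 5 matches in MVK. The cut of at least 2 was not part of the plan. All 5 were lower in shSLC1A5, but ACAT2 and FDFT1, also lower, had no window. The enzymes not called lower were only PMVK and GGPS1, and a link between matches and change was not tested. The matches of IDI1 include a pair on opposite strands that overlap each other, and windows of 1 gene can overlap too. The GC box GGGCGG, bound by SP1, occurred in 11 of the 12 windows, against 45% of all windows. The sterol element motifs TCACCCCAC and TCACNCCAC, searched on both strands, matched in 0 of the 12 windows and in 0.43% and 1.13% of all windows. These matches are descriptions of the letters in the windows only.

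ACAT2 and HMGCS1 carry out the opening steps. ACAT2 (ENSG00000120437, chromosome 6, 159762045 to 159779112, plus strand, coordinates as deposited) is the cytosolic thiolase that joins a pair of acetyl-CoA molecules. It had 20.7, 18.8 and 20.7 FPKM in shSLC1A5, against 33.0, 30.5 and 33.6 FPKM in shControl. All 3 shSLC1A5 libraries were below all 3 shControl libraries, and the log2 fold change was -0.70 (SE 0.052, edgeR adjusted p = 2.6e-06). In the GENCODE 29 annotation (GRCh38) its exons share 397 of 4299 bases with TCP1 on the opposite strand. Since the strand setting of the counting is not given, reads there cannot be told apart. It also shares 1141 bases with SOD2, not analysed here, and 1458 with SOD2-OT1, which had at most 37 counts in any library. TCP1, a subunit of a cytosolic chaperonin, had 22802, 22014 and 21884 counts in shSLC1A5 and 21760, 21691 and 20816 in shControl, with a log2 fold change of -0.11.

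HMGCS1 (ENSG00000112972, chromosome 5, 43287470 to 43313512, minus strand), the cytosolic synthase that adds a further acetyl unit to make HMG-CoA, showed the largest fall of the 9. Its counts were 2897, 2908 and 2888 in shSLC1A5, against 8524, 9001 and 8250 in shControl, and its FPKM 5.45, 5.78 and 5.80 in shSLC1A5, against 17.9, 19.2 and 18.7 in shControl. Each shSLC1A5 library was far below each shControl library, and within a group the libraries were close together. By the edgeR fit HMGCS1 was 69.8% lower, with a 95% confidence interval of 67.9% to 71.5% and a log2 fold change of -1.73 (SE 0.039, adjusted p = 4.37e-10). Of the 11841 tested genes, 8 had a log2 fold change at least that low, HMGCS1 and INSIG1 among them. HMGCS1 shares 703 of 4702 exon bases with an antisense gene on the opposite strand, for which no counts are listed. The log2 ratio of HMGCS1 to ACAT2 in FPKM was -1.92, -1.71 and -1.83 in shSLC1A5, against -0.88, -0.66 and -0.84 in shControl, a difference of -1.03 with groups that did not overlap.

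The mevalonate kinases and the decarboxylase behaved unlike one another. MVK (ENSG00000110921, chromosome 12, 109573255 to 109598117, plus strand), mevalonate kinase, was the least abundant of the 9, with 1.09, 0.889 and 1.07 FPKM in shSLC1A5, against 1.99, 2.02 and 2.02 FPKM in shControl. The groups were well apart, although the shSLC1A5 libraries spread more, and the log2 fold change was -0.99 (SE 0.106, edgeR adjusted p = 4.01e-05). MVK lies head to head with MMAB, an enzyme of cobalamin metabolism, and shares 306 of its 6480 exon bases with it on the opposite strand. MMAB had 674, 728 and 610 counts in shSLC1A5, against 812, 869 and 788 in shControl, a log2 fold change of -0.45 (edgeR adjusted p = 0.00430).

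PMVK (ENSG00000163344, chromosome 1, 154924740 to 154936719, minus strand), phosphomevalonate kinase, takes the very next step and did not pass the test. It had 19.1, 17.1 and 17.8 FPKM in shSLC1A5, against 17.3, 14.5 and 15.0 FPKM in shControl. The highest shControl library, replicate 1, stood above the lowest shSLC1A5 library, so the groups overlapped. The log2 fold change was 0.19 with a 95% confidence interval of 0.0068 to 0.38, not adjusted for the number of genes (edgeR adjusted p = 0.0945). Without shControl replicate 1 it was 0.28 (edgeR adjusted p = 0.0290) and passed the test as higher, whereas after adjusting each library for transcript GC content and length (GC adjustment) it was 0.04 (edgeR adjusted p = 0.780). The log2 ratio of PMVK to MVK was 4.13, 4.27 and 4.06 in shSLC1A5, against 3.12, 2.85 and 2.89 in shControl, a difference of 1.20 with groups that did not overlap.

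MVD (ENSG00000167508, chromosome 16, 88651935 to 88663161, minus strand), which decarboxylates the product of PMVK to isopentenyl pyrophosphate, was lower again. It had 3.92, 3.76 and 3.85 FPKM in shSLC1A5, against 5.64, 5.89 and 5.32 FPKM in shControl. The groups did not overlap, and the log2 fold change was -0.56 (SE 0.0603, edgeR adjusted p = 4.17e-05), or -0.82 after GC adjustment. MVD has the most GC-rich transcript of the 9, at 63.7% GC, and HMGCS1 the least, at 40.2%. Over all tested genes the log2 fold changes were higher for GC-rich transcripts, with a Spearman correlation of 0.49 across genes, which are not independent replicates. After GC adjustment 7 of the 9 transcripts were again lower, against 14.8% of tested genes lower and 11.1% higher, with a median of -0.82 for the 9.

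**Figure D2:**
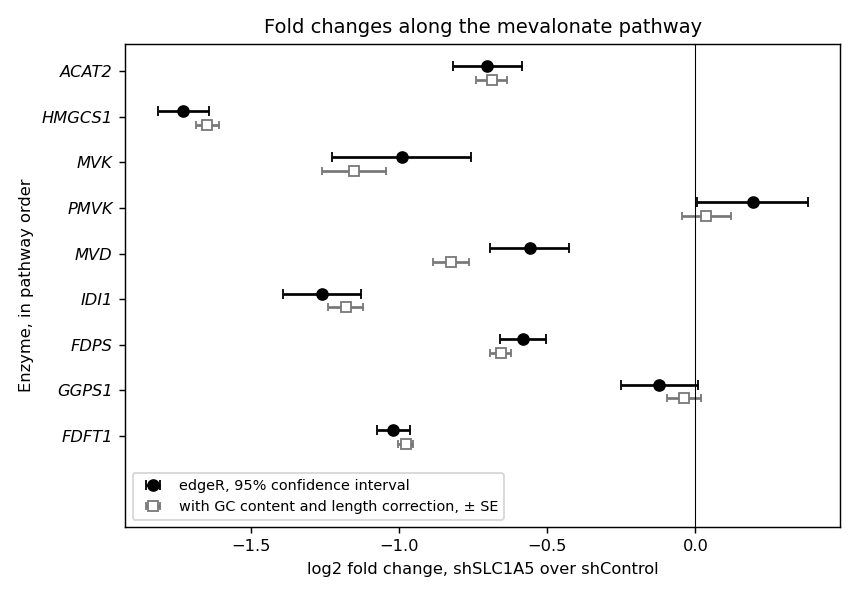
Log2 fold change of shSLC1A5 over shControl (x axis) for the 9 enzymes in pathway order (top to bottom), from edgeR with 95% confidence intervals (filled circles) and after GC adjustment (open squares, ± SE). HMGCS1 lies furthest to the left at -1.73, while PMVK at 0.19 and GGPS1 at -0.12 lie near 0.

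IDI1 and FDPS make the isoprenoid chains. IDI1 (ENSG00000067064, chromosome 10, 1039152 to 1049170, minus strand), the isomerase of the isoprenoid building block, had 5.07, 4.76 and 5.57 FPKM in shSLC1A5, against 12.2, 11.7 and 12.6 FPKM in shControl. The highest shSLC1A5 library was below the lowest shControl library, and the log2 fold change was -1.26 (SE 0.0596, edgeR adjusted p = 1.18e-07), the second largest fall of the 9. IDI1 shares 643 of 4345 exon bases with the antisense gene IDI2-AS1, which had 54, 40 and 60 counts in shSLC1A5, against 71, 148 and 81 in shControl, beside 1572 to 1820 counts of IDI1 in shSLC1A5 and 3584 to 3814 in shControl. Its paralog IDI2 had 8 counts in shSLC1A5 replicate 1 and 0 in every other library.

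FDPS (ENSG00000160752, chromosome 1, 155308748 to 155320666, plus strand), farnesyl pyrophosphate synthase, was the most abundant of the 9 in both groups. It had 27.0, 26.9 and 28.2 FPKM in shSLC1A5, against 38.9, 40.3 and 42.7 FPKM in shControl. The groups did not overlap, and FDPS was 33.2% lower (95% confidence interval 29.4% to 36.7%), a log2 fold change of -0.58 (SE 0.0353, edgeR adjusted p = 6.99e-07). FDPS shares 693 of 3718 exon bases with RUSC1-AS1 on the opposite strand, which had 376, 243 and 411 counts in shSLC1A5 and 376, 381 and 358 in shControl. The 6 listed FDPS pseudogenes summed to 23, 20 and 32 counts in shSLC1A5 and 24, 28 and 15 in shControl, beside 7596 to 8055 counts of FDPS in shSLC1A5 and 10363 to 10573 in shControl. The log2 ratio of FDPS to IDI1 was 2.42, 2.50 and 2.34 in shSLC1A5, against 1.67, 1.79 and 1.76 in shControl.

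GGPS1 and FDFT1 both use farnesyl pyrophosphate, at the branch point. GGPS1 (ENSG00000152904, chromosome 1, 235327350 to 235344532, plus strand), which makes geranylgeranyl pyrophosphate, had 6.86, 6.25 and 6.54 FPKM in shSLC1A5, against 6.79, 7.07 and 7.34 FPKM in shControl. The groups overlapped, and the log2 fold change was -0.12 with a 95% confidence interval of -0.25 to 0.0078 (edgeR adjusted p = 0.126). Its annotated exons share 1422 of 3809 bases with TBCE on the same strand and 138 with ARID4B on the other, so its separate count is uncertain. This TBCE model (ENSG00000285053), which carries the name of a tubulin folding cofactor, had 546, 545 and 363 counts in shSLC1A5 and 622, 587 and 480 in shControl, beside 1807 to 2094 counts of GGPS1 in shSLC1A5 and 1854 to 1901 in shControl.

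FDFT1 (ENSG00000079459, chromosome 8, 11795573 to 11839304, plus strand), squalene synthase, had 17.2, 17.1 and 17.2 FPKM in shSLC1A5, against 33.6, 34.8 and 35.1 FPKM in shControl. All 3 shSLC1A5 libraries were below all 3 shControl libraries, with a log2 fold change of -1.02 (SE 0.0257, edgeR adjusted p = 8.84e-10) and a level 50.6% lower. FDFT1 shares 217 of 5202 exon bases with a noncoding gene on the opposite strand. That gene had 4, 12 and 8 counts in shSLC1A5, against 12, 23 and 29 in shControl. The log2 ratio of GGPS1 to FDFT1 was -1.32, -1.45 and -1.40 in shSLC1A5, against -2.31, -2.30 and -2.26 in shControl, a difference of 0.90. The log2 ratio of FDFT1 to FDPS was -0.65, -0.65 and -0.71 in shSLC1A5, against -0.21, -0.21 and -0.28 in shControl, a difference of -0.44 between squalene synthase and the enzyme feeding it. That of GGPS1 to FDPS was -1.98, -2.11 and -2.11 in shSLC1A5, against -2.52, -2.51 and -2.54 in shControl.

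The listed enzymes were compared in 9 pairs fixed by pathway order, and in each the log2 ratios of the groups did not overlap. No share over other pairs of genes was computed, so this count has no reference. The reduction to mevalonate lies between HMGCS1 and MVK, and GGPS1 and FDFT1 are branches rather than successive steps. Pairs share enzymes, so their ratios are not independent. Of single tested genes, 22.3% had FPKM groups that did not overlap with shSLC1A5 lower, and 27.3% with shSLC1A5 higher. An exact two-sided permutation test gave p = 0.1 for each pair, the smallest value that 3 libraries against 3 allow, and p = 0.1 after Benjamini-Hochberg adjustment over the 9 pairs, so none could pass 0.05. The differences in the log2 ratio ran from -1.03 for HMGCS1 to ACAT2 to 1.20 for PMVK to MVK. Ranked by their mean log2 FPKM relative to shControl, the shSLC1A5 ranges of FDFT1 and MVK overlapped, as did those of FDPS and MVD. The ranges of the other neighbours in that order did not overlap.

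The make-up of the pathway's RNA differed between the groups. Summed over the 9 transcripts, FPKM came to 105 ± 3.01 in shSLC1A5 and 169 ± 3.31 in shControl (SD, n = 3 each). HMGCS1 made up 5.42% ± 0.286 of that sum in shSLC1A5 and 11.1% ± 0.467 in shControl, and FDFT1 16.4% ± 0.407 in shSLC1A5 and 20.5% ± 0.456 in shControl. PMVK took 17.2% ± 0.651 in shSLC1A5 and 9.26% ± 0.932 in shControl, and GGPS1 6.25% ± 0.180 in shSLC1A5 and 4.19% ± 0.118 in shControl. PMVK and GGPS1 were not called by edgeR, and a share also rises when the rest of the sum falls. ACAT2 took 19.1% ± 0.484 in shSLC1A5 and 19.2% ± 0.707 in shControl. By level, the order in shSLC1A5 was FDPS, ACAT2, PMVK, FDFT1, GGPS1, HMGCS1, IDI1, MVD and MVK, with overlapping ranges from ACAT2 to PMVK, PMVK to FDFT1 and HMGCS1 to IDI1. The order in shControl was FDPS, FDFT1, ACAT2, HMGCS1, PMVK, IDI1, GGPS1, MVD and MVK, with no neighbours overlapping.

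**Figure D3:**
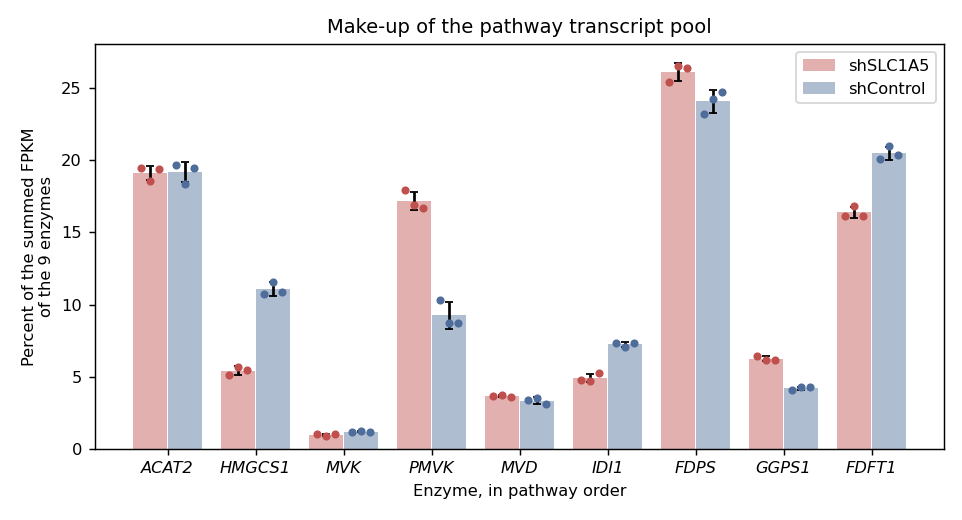
Share of each enzyme in the summed FPKM of the 9 enzymes (y axis, percent, from 0), as the mean and SD of 3 libraries (bars) with each library as a point, for shSLC1A5 and shControl. HMGCS1 took 5.42% in shSLC1A5 and 11.1% in shControl, and PMVK 17.2% in shSLC1A5 and 9.26% in shControl.

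The calls were also made without shSLC1A5 replicate 1, which held most blood cell transcripts. Without shSLC1A5 replicate 1, 7 of the 9 were lower and 0 higher by edgeR, with log2 fold changes of -1.70 for HMGCS1, -1.25 for IDI1, -1.05 for MVK, -1.02 for FDFT1, -0.73 for ACAT2, and -0.58 for both FDPS and MVD. PMVK was at 0.15 and GGPS1 at -0.16 (edgeR adjusted p = 0.3 and 0.0969). The shSLC1A5 replicates 2 and 3 still held B cell transcripts, and their part in the result was not tested.

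Connected gene lists gave the setting. Of the 11 tested enzymes from squalene to cholesterol, 10 were lower and 0 higher by edgeR (0 higher also at an unadjusted p under 0.05 and by DESeq2 and limma), against 19.0% of all tested genes lower, with a median log2 fold change of -0.75. Among them MSMO1, a methyl oxidase of sterols, had 9.73 ± 0.671 FPKM in shSLC1A5 and 31.5 ± 0.865 FPKM in shControl, a log2 fold change of -1.71, close to that of HMGCS1. DHCR7 and HSD17B7, reductases of the later steps, were at -1.21 and -1.04. Of the 9 genes that regulate SREBP factors, 2 were lower, 2 higher and 5 did not pass, beside 19.0% and 20.2% of all tested genes lower and higher. INSIG1, the retention factor, was at -2.25 and SREBF2, which encodes SREBP2, at -0.58, with 11.4 ± 0.288 FPKM in shSLC1A5 and 17.0 ± 0.141 FPKM in shControl. SCAP, the sterol-sensing escort of SREBP, was at 0.38, or 0.12 without a call after GC adjustment (edgeR adjusted p = 0.0776). SREBF1 had a log2 fold change of 0.06 (edgeR adjusted p = 0.379), but -0.22 after GC adjustment (edgeR adjusted p = 0.00380). After GC adjustment 3 of these 9 regulators were lower and 1 higher, beside 14.8% and 11.1% of all tested genes.

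Upstream, of 4 genes that supply cytosolic acetyl-CoA, 2 were lower and 0 higher by edgeR, beside 19.0% and 20.2% of all tested genes. At an unadjusted p under 0.05 and by DESeq2 3 were lower, and by limma 1, with 0 higher in each. After GC adjustment 3 of the 4 were lower and 0 higher, with a median log2 fold change of -0.26, against -0.13 before it. ACLY, which splits citrate into acetyl-CoA, had 59.3 ± 1.07 FPKM in shSLC1A5 and 70.9 ± 0.856 FPKM in shControl, a log2 fold change of -0.27. CS, citrate synthase, was at -0.09 and lost its call after GC adjustment (edgeR adjusted p = 0.0784). Among genes with related chemistry outside the pathway, 1 of 4 tested was lower and 0 higher by edgeR, beside the same shares of all genes (1 higher at an unadjusted p under 0.05 and by DESeq2, 0 by limma). The mitochondrial thiolase ACAT1, the counterpart of ACAT2, had 14.2, 12.7 and 11.7 FPKM in shSLC1A5, against 13.0, 13.2 and 13.5 FPKM in shControl, and its groups overlapped (log2 fold change -0.05, edgeR adjusted p = 0.531). Without shSLC1A5 replicate 1, ACAT1 was at -0.13 (edgeR adjusted p = 0.0336). OXCT1, which uses ketone bodies, was at -0.32.

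Lists of genes that use the pathway's non-sterol products had medians near that of all genes, and their counts are to be read beside the 19.0% of tested genes called lower and 20.2% called higher. Of 10 genes of protein prenylation and processing, 1 was lower and 2 higher, with a median of -0.05, and no transferase subunit was among them. ICMT, which methylates prenylated proteins, was at 0.11 and RCE1, which cleaves their tails, at 0.19 (-0.06 after GC adjustment), while the protease ZMPSTE24 was at -0.10. Of 11 genes of ubiquinone synthesis, 1 was lower and 2 higher, with a median of 0.02. PDSS2, part of the synthase that makes the ubiquinone side chain, was at -0.29, the kinase-like COQ8B at 0.45 and COQ4 at 0.17. Of 5 genes of dolichol synthesis, 0 were lower and 0 higher by edgeR (1 lower at an unadjusted p under 0.05 and by DESeq2, 0 by limma). Of 14 GTPases that carry prenyl groups, 4 were lower and 1 higher, with RAP1B at -0.26, CDC42 at -0.16 and HRAS at 0.15. After GC adjustment the calls of RCE1, ZMPSTE24, COQ4 and COQ8B were lost (edgeR adjusted p = 0.481, 0.779, 0.118 and 0.0575) and HRAS was at -0.16 (edgeR adjusted p = 0.0329), the opposite direction. Among the GTPases the 4 lower before GC adjustment were RAP1B, CDC42, NRAS and RAC1, and the 4 lower after it were RAP1B, CDC42 (at -0.09), HRAS and RHOC, with RAB7A and RAB11A then called higher. NRAS, RAC1, RHOC, RAB7A and RAB11A are named after their values were seen. Of the 6 fits that each left out 1 library, 6 lost the call of RCE1, 5 that of COQ4, 4 that of HRAS and 4 that of ZMPSTE24.

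**Figure D4:**
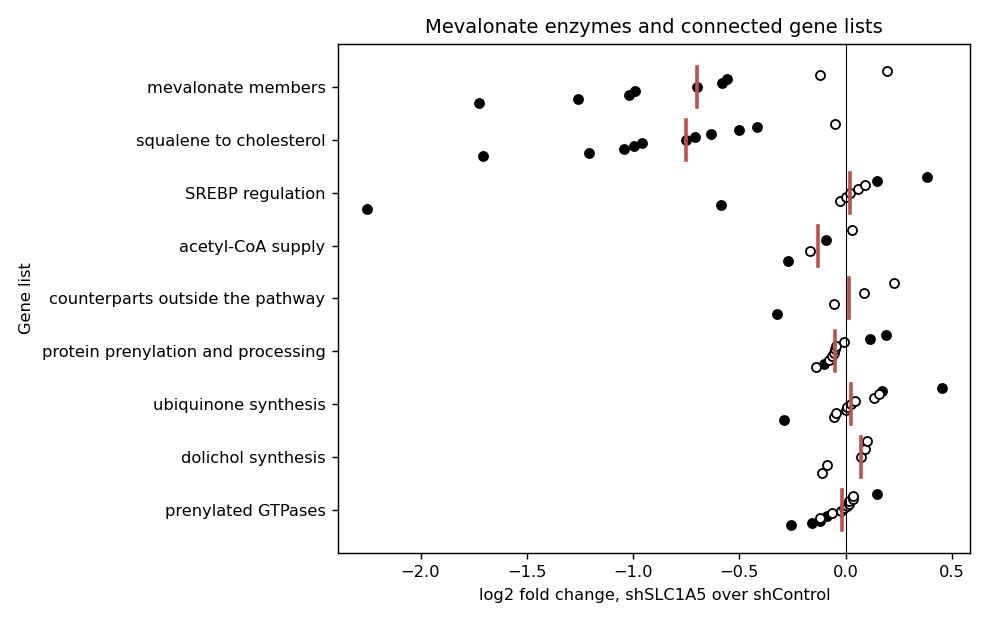
Log2 fold change of shSLC1A5 over shControl (x axis) for each tested gene of the mevalonate enzymes and 8 connected lists (rows), filled where the edgeR adjusted p was under 0.05 and open otherwise, with the list's median as a red bar. The medians of the mevalonate and squalene-to-cholesterol rows lie at -0.70 and -0.75, and those of the other rows lie near 0.

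The transcripts outside the pathway whose 6 values were most like the mean profile of the 9 enzymes were ASB5, HMOX1, DNAJB9, HBEGF, FADS1 and PLK2, by the root mean square difference in centred log2(FPKM + 1) over the 6 libraries. That difference was 0.0157 for ASB5, which encodes an ankyrin repeat protein of the SOCS box family, and 0.0398 for PLK2, a polo-like kinase. ASB5 had 10.5, 10.1 and 10.6 FPKM in shSLC1A5, against 17.0, 16.8 and 16.6 FPKM in shControl. HMOX1, heme oxygenase, and FADS1, a fatty acid desaturase, were at log2 fold changes of -0.67 and -0.66, DNAJB9, a chaperone of the endoplasmic reticulum, at -0.78, HBEGF, a growth factor, at -0.81 and PLK2 at -0.60.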

How the data were processed

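RNA from 6 T98G libraries, 3 per group, was selected on oligo(dT) beads and sequenced as paired reads of 150 bases, per the labels' protocols. The submitters' processing notes name fastp, HISAT2 and StringTie; versions, genome build, strand setting and the handling of reads with several matches are not stated there or in the labels. The deposited table holds whole-number counts per gene, which are not normalized, and FPKM values, which the authors scaled for transcript length and library size. Gene coordinates are those of the deposited table. GENCODE 29 on GRCh38 held 34674 of the listed genes by Ensembl identifier, and for 99.88% of these the deposited position overlapped the same gene. Exon overlaps and transcript length and GC content are from GENCODE 29.

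Counts were tested with edgeR 4.0.16 in R 4.3.3 (quasi-likelihood F test, TMM scaling, group as the only term) over the 11841 genes whose 6-library mean reached 1 FPKM, with Benjamini-Hochberg adjustment over all of them. The test was checked on simulated data. Alternatives used DESeq2 1.42.0, limma 3.58.1 on log2(FPKM + 1) and log2(FPKM + 0.1), other scalings and filters, a correction for transcript GC content and length (loess span 0.3), a replicate block and each library left out. The level ratios were tested by exact permutation over libraries. Named beside the 9 enzymes were SLC1A5, the 3 called genes with the largest change in each connected list, counterparts of the enzymes, SREBP regulators, overlapping genes and the 6 nearest profiles. The enzymes, lists and markers were chosen with earlier results of these data known. Of the lists and markers, 2 genes are not reported here and were left out of every list count and sum. The common biological coefficient of variation was 0.0982.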

Additional observations from a re-analysis of the deposited data

How the results depend on the processing

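HMGCS1, IDI1, FDFT1, ACAT2 and FDPS stayed lower and past the threshold in 16 of 16 alternatives, and MVK and MVD in 15 of 15, with the highest adjusted p at 0.00146 for MVD (edgeR, DESeq2 or limma). A minimum mean of 5 FPKM left MVK and MVD untested. Scaling by library totals alone was added after seeing the data. All tested genes gave 3071 calls with the GC content and length correction and 2928 with that correction and the replicate block, against 4641. The median of the 9 enzymes was -0.58 with limma on log2(FPKM + 1), -0.82 with the correction and -0.82 with block and correction, and -0.74 to -0.65 leaving out 1 library. Leaving out 1 library gave 0 to 1 enzymes called higher, the 1 being PMVK without shControl replicate 1 (0.28, edgeR adjusted p = 0.029). The cause of these moves was not tested. With the correction, alone and with the block, directions reversed for ACAT1 (0.023 and 0.019), HRAS (-0.16 and -0.17), RCE1 (-0.065 and -0.065) and SREBF1 (-0.22 and -0.22); ACAT1 was also at 0.012 without shSLC1A5 replicate 3, and at -0.13 and called without shSLC1A5 replicate 1 (edgeR adjusted p = 0.0336).

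Same-numbered libraries did not deviate together (correlations of -0.151, 0.0356 and -0.0343, with the own number best for 1 of 3). With 3 libraries per group, this check cannot exclude that same-numbered libraries were handled together. The replicate block gave 4470 calls over all genes and 7 enzymes lower. All 9 ratios between paired enzymes also had groups that did not overlap when taken from CPM, which rests on the same libraries as FPKM. The runs that left out a library could not test this, since removing a library cannot make separate groups overlap. Of 256 counts over connected lists, 51 moved, meaning a change of over 1.5 times or a change from or to no calls.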
